A study of Oryzias latipes with 3 samples.

Results

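Distal acetylated peaks are the candidate enhancers of stage 24 medaka (Oryzias latipes) embryos that lay far from any promoter mark. They were defined as peaks of H3K27ac, acetylation of lysine 27 on histone H3, that shared no base with a peak of H3K4me3, trimethylation of lysine 4, were under 2500 bp wide, and had their midpoint more than 20 and at most 100 kb from the nearest H3K4me3 midpoint. The rule selected 5089 peaks (exact Poisson 95% interval 4950 to 5231), which is 21.2% of the 24027 H3K27ac peaks (Wilson 95% interval 20.7 to 21.7) and 39.3% of the 12938 peaks without H3K4me3 (38.5 to 40.2). Together they covered 5.61 Mb, or 34.1% of the acetylated sequence without H3K4me3, and all 24 chromosomes carried some. Width, distance and absence of H3K4me3 chose the peaks and are given below as description, whereas the score, the spacing of peaks and the properties of the neighbouring H3K4me3 peaks were not used by the rule.

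Whole embryos were raised at 26 °C and dechorionated by hand, and chromatin of 600 embryos entered each immunoprecipitation. The H3K27ac list comes from 1 of 2 H3K27ac samples, both made with antibody ab4729, and the H3K4me3 list of 12884 peaks from the only H3K4me3 sample, made with antibody pAb-003-050. The other H3K27ac sample was not used here. No genotype, strain or treatment is named in the labels, and each sample pooled all tissues of many embryos. A mark in few cells and a weak mark in many cells cannot be told apart, and an absent H3K4me3 peak does not show its absence in a minor cell type.

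Enhancers are stretches of DNA that bind transcription factors and raise transcription of a gene from a distance, often in particular cell types. Active enhancers typically carry H3K27ac with little H3K4me3, whereas active promoters carry both marks, so acetylation away from H3K4me3 is a common way to list enhancer candidates. In vertebrates, genes that control development are often surrounded by long gene-poor stretches with many such elements, and an enhancer need not act on the nearest promoter. At stage 24 the medaka embryo is forming somites and organ primordia. Gene names and sequences are not given below, because the gene table at hand is not known to share the peak lists' build. On 8 of 24 chromosomes peaks continued past its last gene, which does not by itself show another build. Coordinates count from 1 and follow the build of the deposited lists, which the labels and lists do not name.

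Each mark was represented by 1 list without read counts, so depth is unknown, nothing below was checked in a replicate and no p-value is given. The intervals given are 95% intervals for counting error only. They treat peaks as independent, although peaks were clustered, and are therefore too narrow for a comparison of embryos. For the profile by distance, the density by H3K4me3 width and the nearer flank, the number of chromosomes that showed the same order is given beside the value.

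Most distal peaks had scores in the lower part of the H3K27ac list. They measured 975 bp at the median (interquartile range 699 to 1432), and their median distance to H3K4me3 was 37.6 kb (interquartile range 27.2 to 55.5). The deposited score is a value that the caller gave each peak, with no stated unit, and is compared only within the H3K27ac list. The median score of distal peaks was 104 (95% interval 101 to 106), from a minimum of 50.01 to a maximum of 1729, and the middle 50% lay between 68.9 and 182. For H3K27ac peaks that overlapped H3K4me3 the median was 515. Neither these nor the whole list had a width limit, and score followed width, so the comparisons with them are not at like width. Over the whole list the median was 195, a value exceeded by 22.5% of distal peaks (21.4 to 23.7). The top quintile of the list began at 674 and included 66 distal peaks, 1.30% of them (1.02 to 1.65), whereas 34.3% (33.0 to 35.6) fell into the lowest quintile. The shares were 2.21% and 32.6% for peaks at 5 to 20 kb and 0.840% and 38.2% for those over 100 kb from H3K4me3. The median score of all H3K27ac-only peaks was 110. Across the 24 chromosomes the median score of distal peaks ran from 91.5 on chromosome 10 to 123 on chromosome 8 (mean 105 ± 7.52 SD over chromosomes).

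The scores of distal peaks were close to those of acetylated peaks at 5 to 20 kb from H3K4me3 once width was taken into account. The 4843 peaks at 5 to 20 kb that met the same rule on width and overlap, called proximal here, had a median score of 109 (106 to 113), so that the distal median was lower by 5.4. This difference was -7.45 with edge to edge distances, -7.57 with no width limit and -7.03 after merging, with intervals below 0. It was -3.1 (-6.52 to 0.318) for widths under 1500 bp. For the top 50% of H3K27ac peaks by score it was 2.31 (-10.3 to 14.9), but that setting selects on score itself and cannot test the sign. The sign also differed between the bands of like width below, so it is not established. Proximal peaks were also wider, with a median of 1013 bp. Score followed width among distal peaks, with a Spearman correlation of 0.67 over 5089 peaks of the same library, given as description. Score hardly followed distance within the window, where the correlation was -0.05. Among peaks of 1000 to under 1500 bp the median score was 139 (134 to 145) for distal and 137 (133 to 142) for proximal peaks. Among those of 1500 to under 2500 bp it was 222 (210 to 236) and 211 (203 to 222). In the band from 750 to under 1000 bp the medians were 97.8 and 98.9, and under 750 bp they were 64.6 and 66.7, so the intervals overlapped in all 4 bands and the sign of the difference was not the same in all of them. No peak of the H3K27ac list scored below 50.0, which may compress differences in the narrowest band. The 833 peaks over 100 kb from H3K4me3 were narrower, with a median of 886 bp, and their widest band had a median score of 249 (224 to 270), an interval that overlaps that of distal peaks. Peaks within 5 kb of H3K4me3 differed from distal peaks in opposite directions, with a higher median of 76.1 (69.9 to 80.3) under 750 bp and lower ones in the other bands, down to 140 (127 to 164) in the widest.

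**Figure D1:**
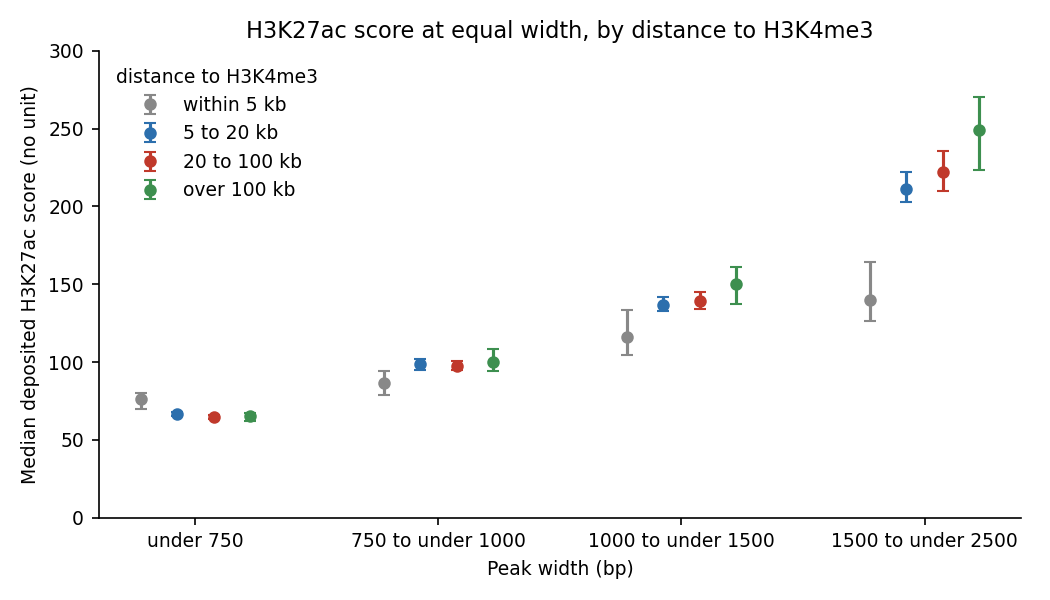
Median deposited H3K27ac score (vertical axis, no unit) of peaks without H3K4me3, in 4 bands of peak width in bp (horizontal axis) and by distance to the nearest H3K4me3 midpoint; bars are 95% order-statistic intervals. Distal peaks (20 to 100 kb) lie beside proximal peaks (5 to 20 kb) in every band, for example at 139 and 137 from 1000 to under 1500 bp, while peaks within 5 kb lie at 140 in the widest band against 222 for distal peaks.

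The peaks of highest score were found at distances of up to 64.9 kb and on 7 chromosomes. First came a 2308 bp peak on chromosome 4, from 2345589 to 2347896, with a score of 1729 and H3K4me3 20.5 kb away on its right and 247 kb away on its left. It was followed by a 2267 bp peak at chromosome 20, 16489411 to 16491677, of score 1574, at 64.9 kb from an H3K4me3 peak that was 1782 bp wide, scored 1815 and overlapped no H3K27ac peak. Of the 10 highest, this was the only one whose nearest H3K4me3 peak lacked acetylation, and over all distal peaks the share was 14.2%. The third, of score 1378 at chromosome 2, 28288064 to 28290346, had H3K4me3 at 27.1 kb on its left and none for 306 kb on its right. Chromosome 4 carried another 2 of the 10. They were a 2063 bp peak at 30630020 to 30632082, of score 1351 and 42.0 kb from H3K4me3, and a 1791 bp peak at 1845626 to 1847416, of score 1275 and 34.8 kb away. The latter had no other H3K27ac peak within 33.7 kb. The peak at chromosome 20, 19817748 to 19819026, of score 1323, was separated from the next H3K27ac peak by only 34 bp, so the calling of 1 or 2 peaks there depends on the caller. The remaining 4 lay at chromosome 8, 19117759 to 19119335 (score 1306), chromosome 7, 8890063 to 8891561 (1299), chromosome 9, 15947990 to 15950085 (1270), and chromosome 1, 25339994 to 25342276 (1242). Their distances to H3K4me3 were 32.5, 61.8, 43.0 and 21.9 kb.

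The highest scores at the far end of the window were lower, but fewer peaks lay there. There were 213 at 80 to 90 kb and 161 at 90 to 100 kb, against 1673 at 20 to 30 kb. A maximum tends to rise with the number of peaks, so these maxima are description and do not compare the bands. Between 80 and 100 kb from H3K4me3 the highest score was 753, in a 2217 bp peak at chromosome 20, 6968291 to 6970507. The next was 573, in a 2389 bp peak at chromosome 5, 32298889 to 32301277. The nearest H3K4me3 peak of the former, 91.8 kb to its left, was 3512 bp wide and thus in the widest quintile of its list. The 3 distal peaks farthest from any other peak of either mark were a 588 bp peak at chromosome 12, 5946012 to 5946599 (score 53.7), a 501 bp peak at chromosome 13, 17027642 to 17028142 (64.7), and a 1001 bp peak at chromosome 22, 3083628 to 3084628 (139). The scores of the first pair lay below the distal median of 104 and that of the third above it. The gaps from these to the nearest other H3K27ac peak were 98.8, 163 and 95.7 kb.

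The limits of the rule cut through continuous distributions. The peaks just inside 20 kb, at 20013 and 20042 bp from H3K4me3, had scores of 288 and 100, and those just outside, at 19991.5 and 19989 bp, had 165 and 70.4. Just inside 100 kb, at 99948 and 99795 bp, the scores were 83.2 and 124, and just outside, at 100067.5 and 100074 bp, 122 and 55.6. Just under the width limit were peaks of 2495 and 2493 bp with scores of 514 and 106, and just over it, at the same range of distances, peaks of 2504 and 2508 bp with 307 and 459. In all, 364 H3K27ac-only peaks at 20 to 100 kb were left out for a width of 2500 bp or more.

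Within the window, distal peaks were sparser the farther the sequence lay from H3K4me3. Because little sequence is far from any H3K4me3 peak, the number of peaks was divided by the sequence available at each distance. The window of 20 to 100 kb comprised 284 Mb and held 17.9 distal peaks per Mb (17.4 to 18.4), compared with 24.6 proximal peaks per Mb (23.9 to 25.3) at 5 to 20 kb and 9.43 peaks per Mb (8.72 to 10.2) at 100 to 200 kb. The order did not hold outside these ranges: within 5 kb the density was lower, with 13.9 per Mb (13.0 to 14.8) at 2 to 5 kb, and beyond 100 kb it was 9.63 (8.50 to 10.9) in the first step and no lower in the next (8.64 to 11.6). Within 5 kb the sequence counted includes bases under H3K4me3 peaks, where peaks without overlap cannot lie, so the rule itself lowers the density there. Within the window the density was 22.2 per Mb (21.1 to 23.3) at 20 to 30 kb, 17.8 (16.6 to 19.1) at 40 to 50 kb, 15.5 (14.0 to 17.1) at 60 to 70 kb and 11.1 (9.44 to 12.9) at 90 to 100 kb. Each of the 8 steps of 10 kb had a lower density than the step before, the first being below the 24.0 of 10 to 20 kb. Sequence at 20 to 50 kb held 1.43 times as many distal peaks per Mb as sequence at 50 to 100 kb (1.35 to 1.52), and 23 of 24 chromosomes showed the same order, the exception being chromosome 2 (16.1 and 16.8 per Mb).

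Sequence far from H3K4me3 occurs only in long intervals between H3K4me3 peaks, so the profile was also drawn from long intervals alone. In intervals of over 200 kb, all of which contain every distance of the window, the density was 18.3 per Mb (16.0 to 20.7) at 20 to 30 kb, 14.4 (13.0 to 15.9) at 40 to 60 kb and 10.9 (9.68 to 12.2) at 80 to 100 kb. The ratio of 20 to 50 over 50 to 100 kb was 1.29 there (1.16 to 1.43). When stretches of over 500 kb without a peak of either mark were also removed it was 1.28 (1.15 to 1.42).

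**Figure D2:**
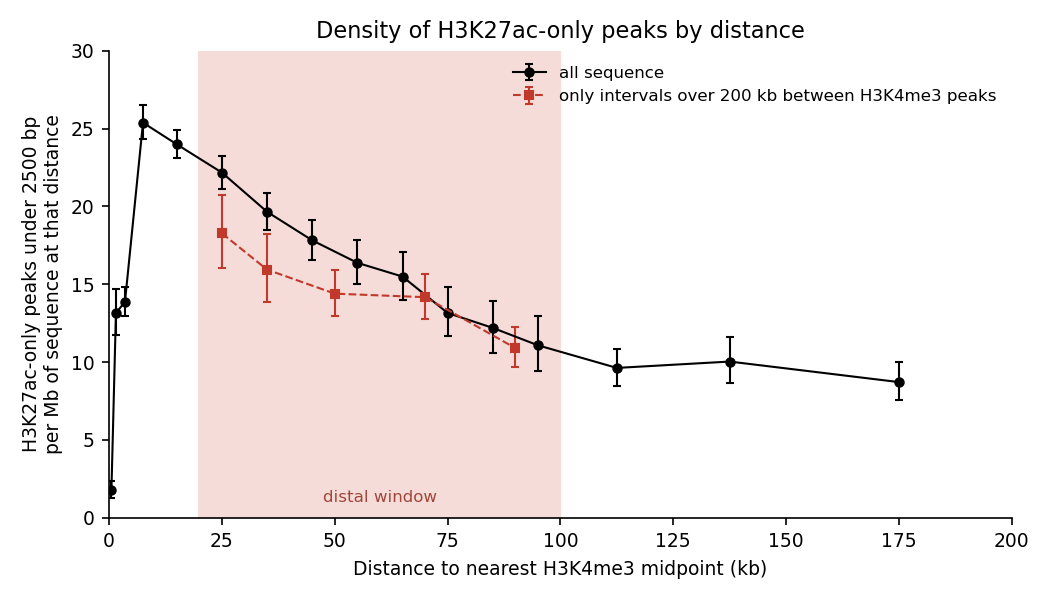
Number of H3K27ac-only peaks under 2500 bp per Mb of sequence (vertical axis) against distance to the nearest H3K4me3 midpoint in kb (horizontal axis, each point at the middle of its bin), for all sequence (black) and for intervals of over 200 kb between H3K4me3 peaks (red); bars are exact Poisson 95% intervals and the shaded band is the distal window. Density is 22.2 per Mb at 20 to 30 kb and 11.1 at 90 to 100 kb, and in long intervals 18.3 at 20 to 30 kb and 10.9 at 80 to 100 kb.

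Distal peaks often lay several together in an interval between neighbouring H3K4me3 peaks, while many other intervals of over 40 kb held none. H3K4me3 was found on both sides of 99.6% of them. The farther flank was at a median of 95.1 kb (interquartile range 59.0 to 164), and the median length of the interval around a distal peak was 140 kb, compared with 24.0 kb for all 12860 intervals. The rule sets much of this contrast, which is given as description, since only intervals of over 40 kb can hold a distal peak. Of these 4512 intervals, 2136 held at least 1, or 47.3% (45.9 to 48.8), with 951 holding exactly 1 and 252 holding 5 or more. This share depended on the lists: it was 51.7% with acetylated H3K4me3 peaks only, 70.4% with the top 50% of H3K4me3 peaks by score and 19.3% with the top 50% of H3K27ac peaks. The 252 contained 1644 distal peaks, 32.3% of the total (31.0 to 33.6), and 50% of all distal peaks lay in the 492 fullest intervals, 10.9% of those of over 40 kb. These shares are not corrected for interval length. The 1357 intervals of 40 to 60 kb, 81.3% of them empty, had 12.2 Mb in the window, and the 356 of 200 to 300 kb had 57.0 Mb. Part of the unevenness is therefore set by length and the rule.

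The number of distal peaks varied between intervals of like length. For independent peaks at a uniform density the variance of the number per interval would equal its mean. In classes up to 200 kb the range of lengths would add some excess. Intervals of over 200 kb all have the same amount of sequence in the window, so their range of lengths adds none. Sites that the caller split into several peaks would add to the excess, and 15.0% of distal peaks had another within 2 kb. These parts of the excess were not separated, and peaks were not merged for it. The variance was 1.10 times the mean for intervals of 40 to 60 kb, 1.42 times for 60 to 80 kb, 1.84 times for 80 to 120 kb, 2.42 times for 120 to 200 kb, 2.86 times for 200 to 300 kb, 2.99 times for 300 to 500 kb and 2.10 times for those of over 500 kb, of which there were 103. Between 200 and 300 kb, 28.7% of 356 intervals were empty (24.2 to 33.6) while the fullest held 15. Intervals of 40 to 60 kb had 24.2 distal peaks per Mb of their sequence in the window (21.5 to 27.1), those of 120 to 200 kb had 17.9 (17.0 to 18.8) and those of over 500 kb had 10.9 (9.33 to 12.6). Sequence in short intervals lies at short distances, so these values overlap in part with the profile by distance.

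The interval with most distal peaks, 15, lay on chromosome 20 between H3K4me3 peaks, at 5249486 to 5523637. Its peaks spanned 222 kb, had a median width of 1537 bp and scores from 54.2 to 676 with a median of 192, and 12 of the 15 had another H3K27ac peak within 10 kb. An interval on chromosome 9, 17334682 to 17655367, held 13 distal peaks of low median score, 80.1, together with 6 H3K27ac-only peaks of 2500 bp or more. The H3K4me3 peak on its right was 3476 bp wide and that on its left 1158 bp. Intervals with 12 distal peaks were found on chromosome 6 (6207604 to 6431252 and 13569582 to 13777302), chromosome 9 (22559797 to 22849517), chromosome 12 (19851661 to 20110083) and chromosome 22 (21454818 to 21645065). That on chromosome 22 was the shortest of these 5, at 192 kb, and had the highest median score, 217, with all 12 peaks within 10 kb of another H3K27ac peak. That on chromosome 6 at 13569582 had the lowest median score, 69.6. Another 3 of the 10 listed intervals held 11. They lay at chromosome 2, 28262553 to 28594259, and at chromosome 6, 2193064 to 2533388 and 23537904 to 23689937. The first of them contains the peak of score 1378 named above, and the last was the densest of the 10, with 96.6 distal peaks per Mb of its sequence in the window. Chromosome 6 thus carried 4 of the 10 listed intervals. Ties were cut by chromosome, then start, and 21 intervals held 10 or more distal peaks. Other intervals with 11 may therefore be missing from the list, and the count for chromosome 6 may depend on this order.

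**Figure D3:**
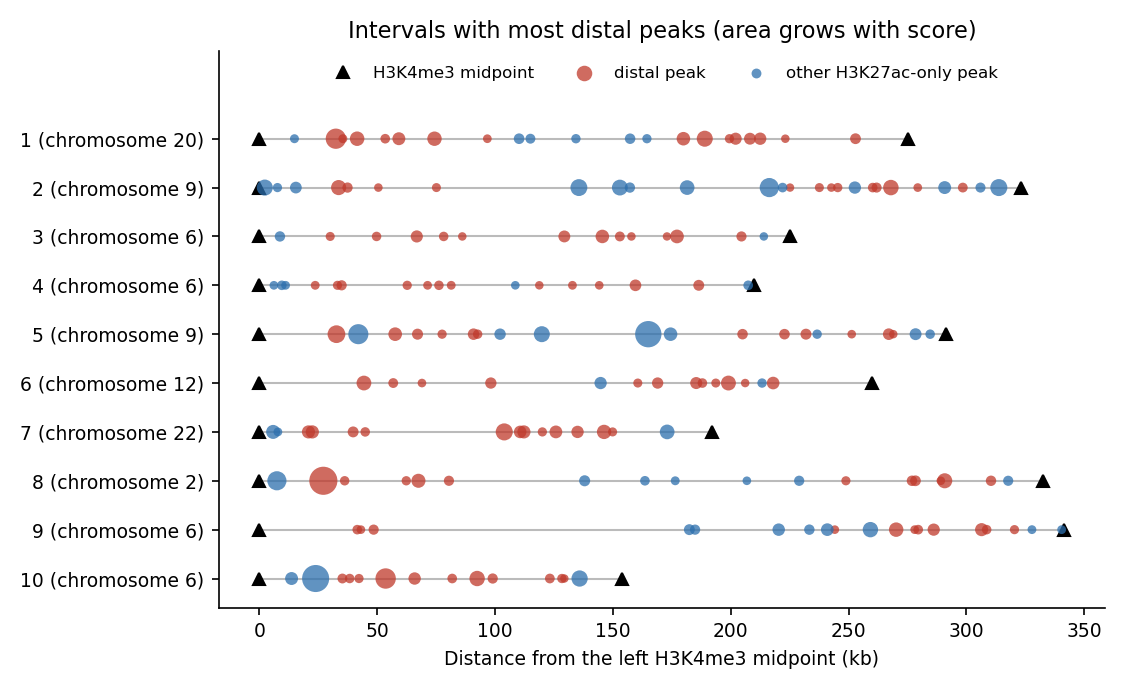
The 10 intervals between neighbouring H3K4me3 midpoints (triangles) with most distal peaks, each drawn from its left H3K4me3 midpoint (horizontal axis, kb); circles are H3K27ac-only peaks at their midpoints, red for distal and blue for others (nearer than 20 kb or farther than 100 kb, or 2500 bp and wider), with area growing with score. The intervals hold 11 to 15 distal peaks, and the largest red circle, on chromosome 2, is the peak of score 1378. Ties at 11 were cut by chromosome, then start.

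Distal peaks were often close to each other. Another distal peak lay within 10 kb, edge to edge, of 46.0% (44.7 to 47.4) and within 2 kb of 15.0% (14.1 to 16.0). The nearest H3K27ac peak of any kind was another distal peak for 64.9% (63.5 to 66.2), an H3K27ac peak on H3K4me3 for 13.5% (12.6 to 14.5) and a proximal peak for 13.2% (12.3 to 14.2). The rule keeps distal peaks away from H3K4me3, so the kind of the nearest peak is largely fixed by the choice of peaks and is given as description. The gap to the nearest H3K27ac-only peak of any width had a median of 8.69 kb (8.34 to 9.14) for distal and 9.78 kb (9.22 to 10.4) for proximal peaks. It was 13.7 kb (12.5 to 15.1) within 5 kb of H3K4me3 and 12.4 kb (11.7 to 13.8) over 100 kb from it. Peaks without H3K4me3 cannot lie on H3K4me3 peaks, which are nearer to proximal than to distal peaks. The rule thus bears on these gaps, which are given as description and do not compare the groups. The share with another distal peak within 10 kb was 34.5% after H3K27ac peaks up to 2 kb apart had been merged, and 15.7% when H3K27ac peaks were limited to the top 50% by score.

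Crowded distal peaks were called wider, while the intervals of their median scores overlapped. The 1237 distal peaks with no other within 50 kb had a median width of 847 bp (816 to 879), those with 3 or 4 others 1078 bp (1034 to 1104), and the 547 with 5 or more 1192 bp (1151 to 1278). The median scores in these groups were 105 (101 to 110), 104 (98.3 to 110) and 101 (92.6 to 111), with overlapping intervals. The difference in width between 5 or more and no others, 345 bp (274 to 416), was 152 bp (67.0 to 237) when only peaks under 1500 bp were used, and with the top 50% of H3K27ac peaks by score it was 439 bp with an interval that includes 0 (-219 to 1097). At like width, crowded peaks therefore scored lower: from 1000 to under 1500 bp the median was 117 (113 to 126) with 3 or more others within 50 kb and 172 (158 to 185) with none, and from 1500 to under 2500 bp it was 203 (185 to 215) and 264 (242 to 309). Under 750 bp the medians, 64.4 and 66.1, had overlapping intervals. They lie near the lowest score of the list, 50.0, so a difference there may be compressed. Crowded peaks were also farther from H3K4me3, with a median of 50.6 kb for 5 or more others against 31.4 kb for none. Only distal peaks counted as others, so near 20 kb the rule leaves out part of the surroundings. This difference in distance is thus partly set by the rule and is given as description. Among peaks over 70 kb from H3K4me3, whose surroundings of 50 kb lie wholly beyond 20 kb, the widths were 1180 bp (1081 to 1299, 101 peaks) with 5 or more others and 821 bp (755 to 890, 134 peaks) with none. Peaks over 100 kb from H3K4me3, or of 2500 bp and more, were still not counted as others. Scores of adjacent distal peaks of the same interval were almost unrelated, with a Spearman correlation of 0.06 over 2935 adjacent pairs, many of which share a peak.

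**Figure D4:**
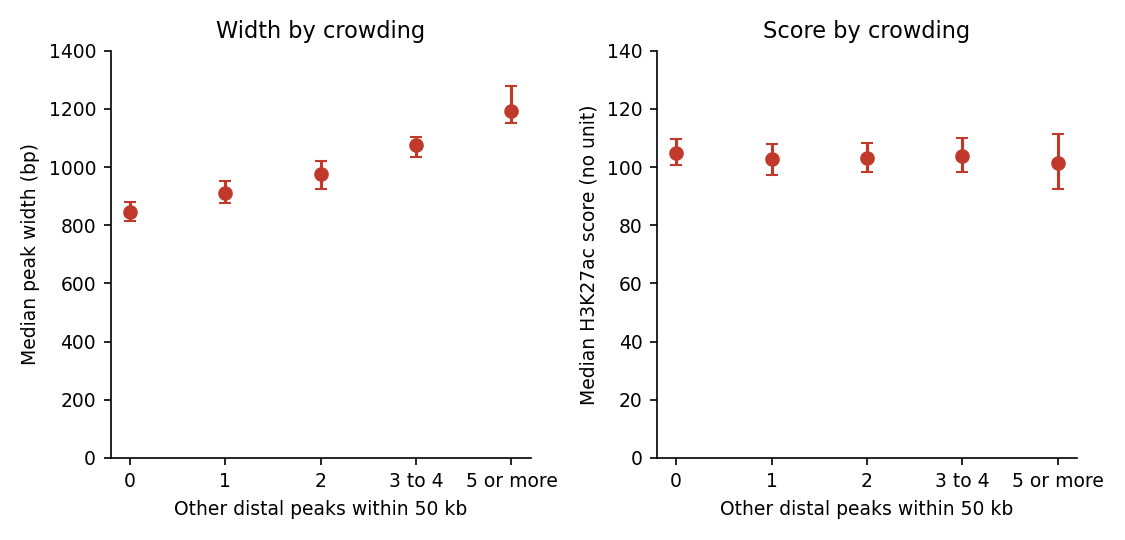
Median width in bp (left) and median H3K27ac score without unit (right) of distal peaks, by the number of other distal peaks within 50 kb of the midpoint; bars are 95% order-statistic intervals. Width goes from 847 bp with no other to 1192 bp with 5 or more, while the score stays between 101 and 105.

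The H3K4me3 peaks nearest to distal peaks were mostly acetylated, as H3K4me3 peaks were in general. For 85.8% of distal peaks (84.8 to 86.7) the nearest H3K4me3 peak overlapped H3K27ac, compared with 86.7% (85.7 to 87.6) of proximal peaks and with 85.9% of all H3K4me3 peaks. Of the sequence in the window, however, 82.4% was nearest to an acetylated H3K4me3 peak. The density of distal peaks was 18.7 per Mb (18.1 to 19.2) around acetylated H3K4me3 peaks and 14.5 (13.4 to 15.6) around those without acetylation, a ratio of 1.29 (1.19 to 1.40). Of the 7141 H3K4me3 peaks with any sequence in the window nearest to them, 2653 were the nearest to at least 1 distal peak, 37.2% (36.0 to 38.3), and 169 were the nearest to 5 or more.

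Distal peaks were densest around broad H3K4me3 peaks. Broad H3K4me3 domains are known from other vertebrates at genes of cell identity and development. Around the narrowest quintile of H3K4me3 peaks (258 to 815 bp) there were 12.4 distal peaks per Mb of sequence in the window (11.6 to 13.2), around the 3 quintiles in between 15.5, 15.6 and 18.9, and around the widest (1542 to 6599 bp) 27.0 (25.8 to 28.3). The ratio of the widest to the narrowest was 2.18 (2.01 to 2.37), and the widest had the higher density on 24 of 24 chromosomes. For the 129 widest H3K4me3 peaks, of 2889 bp and more, the density reached 37.3 per Mb (32.2 to 43.0). The ratio was 2.25 (2.03 to 2.50) at 20 to 50 kb and 2.0 (1.73 to 2.32) at 50 to 100 kb. Proximal peaks showed the same order with a smaller ratio, 1.70 (1.56 to 1.86), and the difference between these ratios was not tested. Within 5 kb the ratio was 0.642 (0.535 to 0.770). The sequence counted there includes bases under the H3K4me3 peaks, where peaks without overlap cannot lie. Wide H3K4me3 peaks fill more of it, so this lower ratio is partly set by the rule.

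In each score quintile of H3K4me3 peaks the density was highest around the widest ones. In the lowest score quintile the density of distal peaks was 11.8 per Mb around the narrowest and 33.4 around the widest H3K4me3 peaks. The second of these rests on 40 peaks in 1.20 Mb. In the middle quintile the densities were 12.7 and 31.8. In the highest it was 21.2 and 23.6, but the first of these values rests on 13 peaks. By score alone the density was 13.6 per Mb (12.8 to 14.5) in the lowest quintile, 20.5 (19.3 to 21.7) in the middle and 19.1 (17.8 to 20.3) in the highest. Several H3K4me3 peaks share a score of exactly 3100, while the list reaches 3233. The score may therefore not rank the highest peaks. When only the 50% of H3K4me3 peaks with the highest score were used, 7752 peaks were distal. The ratio of the widest to the narrowest quintile was then 1.36 (1.27 to 1.46). This setting changed the overlap as well as the distances, so peaks on a left-out H3K4me3 peak counted as without H3K4me3.

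**Figure D5:**
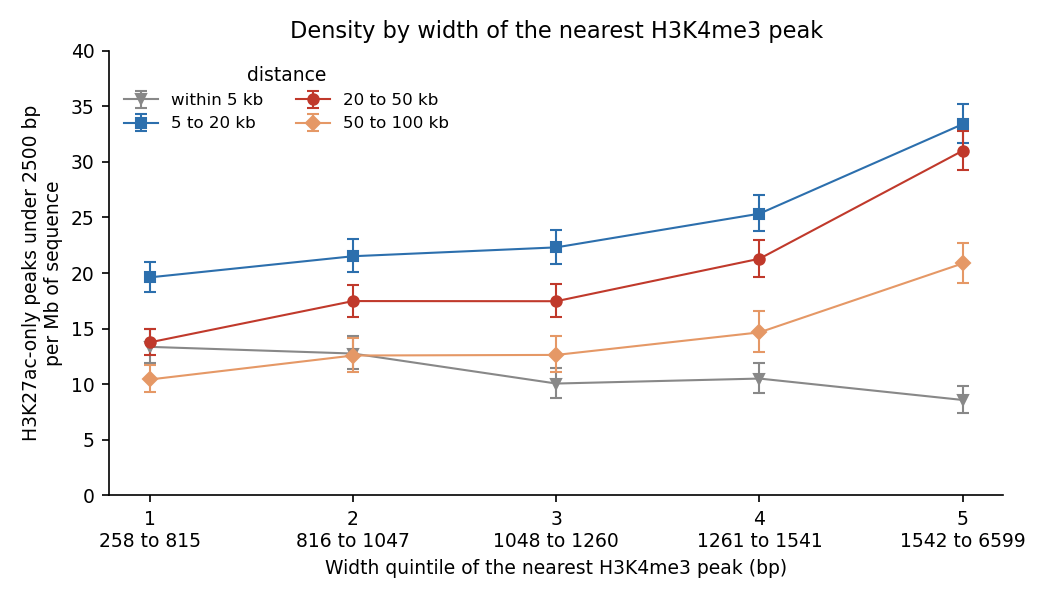
H3K27ac-only peaks under 2500 bp per Mb of sequence (vertical axis) by width quintile of the nearest H3K4me3 peak (horizontal axis, with the range of widths in bp), separately for 4 ranges of distance; bars are exact Poisson 95% intervals. Density at 20 to 50 kb goes from 13.8 per Mb at the narrowest to 31.0 at the widest quintile and at 50 to 100 kb from 10.4 to 20.9, while within 5 kb it goes from 13.4 to 8.58. Sequence within 5 kb includes bases under the H3K4me3 peaks, which lowers the density there, more so for wide ones.

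Within an interval the preference for the broader flank was small. Between neighbouring H3K4me3 peaks equal lengths of sequence are nearest to either flank, so 50% of distal peaks would be nearer to the wider flank without a preference. The wider flank was the nearer one for 54.3% of 5069 distal peaks (52.9 to 55.7), and the share exceeded 50% on 22 of 24 chromosomes. Counted by interval, 1025 had more distal peaks on the side of the wider flank and 824 fewer, with 286 tied. Where the flanks differed in width by 2-fold or more the share was 57.9% (55.4 to 60.4), and with smaller differences it was 52.8% (51.1 to 54.4). No such preference was detected for the flank of higher score, which was nearer for 50.4% (49.0 to 51.8), with a share above 50% on 14 chromosomes. Where only 1 of the flanks was acetylated, it was the nearer for 49.9% (47.2 to 52.7), with a share above 50% on 11 chromosomes.

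The H3K4me3 peak nearest to most distal peaks, 12, lay at chromosome 22, 10275523 to 10279013. It was 3491 bp wide and acetylated, had 6 distal peaks on each side from 22.8 to 94.7 kb, and these had a median score of 216. Another 2 of the 5 H3K4me3 peaks listed here were in the widest quintile. They were a 4961 bp peak at chromosome 3, 28200470 to 28205430, and a 3838 bp peak at chromosome 6, 13565744 to 13569581, with 9 distal peaks each, of median scores 61.2 and 78.2. The latter is the left flank of an interval with 12 distal peaks named above. The other 2 were narrow. An 827 bp peak at chromosome 20, 6344531 to 6345357, and a 722 bp peak at chromosome 23, 6643291 to 6644012, were each the nearest to 10 distal peaks. Ties were cut by chromosome, then start, so other H3K4me3 peaks with 9 may be missing from this list.

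Chromosomes differed in their density of distal peaks. Per Mb of sequence in the window it averaged 17.9 ± 2.58 (SD over 24 chromosomes) and ran from 13.3 (11.3 to 15.7) on chromosome 18 to 22.2 (19.5 to 25.2) on chromosome 6. Chromosomes 20, 22, 4 and 15 followed chromosome 6 with 21.9, 21.6, 21.2 and 21.1. Their intervals overlap those of chromosome 6 and of each other. On chromosome 1, the sex chromosome of medaka, 220 distal peaks gave 14.3 per Mb (12.4 to 16.3), the second lowest value. With stretches of over 500 kb without peaks left out it was 14.9, above chromosome 18 (13.6) and chromosome 8 (14.4). As a share of the H3K27ac-only peaks of a chromosome, distal peaks made up between 29.7% on chromosome 24 (25.7 to 34.2) and 45.2% on chromosome 19 (40.4 to 50.2). These are extremes picked from 24 chromosomes and do not test a difference. The densities were not corrected for assembly gaps or for sequence to which reads cannot be mapped.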

How the data were processed

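H3K27ac and H3K4me3 ChIP-seq of whole embryos was analysed from 1 deposited peak list per mark. Bowtie served as the aligner, per the submitters' processing notes, and the peak names in the deposited lists contain MACS, a peak caller. Nothing on versions, settings, control library, pooling or genome build is given in the sources used here. The deposited score is the authors' value per peak, of unstated meaning, and was used only to rank and describe H3K27ac peaks, and separately H3K4me3 peaks, within their lists. A called width depends on depth and settings, which are unknown.

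An overlap meant 1 shared bp, and a count with bedtools 2.31.1 gave the same 12938 peaks without H3K4me3. Available sequence at a distance was the number of bases, between the first and last peak of a chromosome, at that distance from the nearest H3K4me3 midpoint. Bases under H3K4me3 peaks were counted too. Assembly gaps and sequence to which reads cannot be mapped were not identified or removed, so no density is corrected for them. Shares carry Wilson, counts exact Poisson, medians order-statistic and ratios of densities exact conditional 95% intervals, all covering counting error only. Correlations are Spearman's and carry no p. Values were computed in Python 3.11.15 with SciPy 1.17.1, pandas 2.3.3 and NumPy 2.4.6 and drawn with matplotlib 3.10.9, and the routines were tested on simulated lists with planted densities.

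Regions were named by rule: the 10 highest scores, the 2 highest in each 20 kb band, the 10 fullest intervals, the 3 most isolated peaks, the 5 H3K4me3 peaks nearest to most distal peaks, and those at each limit. Ties were cut by chromosome, then start. Members, lists and comparisons were chosen with earlier results of these data known. Alternatives covered the overlap, the distance, score and width limits, merging, and the sequence counted.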

Additional observations from a re-analysis of the deposited data

How the results depend on the processing

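Of the 114 recomputed values under 14 settings, 60 stayed within the intervals of the reported value (for the number of peaks, within 1.5 times), 53 moved beyond them and 1 reversed. Settings for H3K4me3 width, the nearer flank and crowding were chosen after seeing the data. The 60 overstate stability, since 2 settings, 50% cover and H3K4me3 extended by 1 kb, hardly touch peaks so far from H3K4me3. Under these only the share of H3K27ac-only peaks changed, and the other values were identical to those reported. As reported, 39.3% of H3K27ac-only peaks were distal. This share was 38.0% when 50% of a peak had to be covered to count as shared, 40.8% with H3K4me3 extended by 1 kb, 37.6% with edge to edge distances, 42.1% both with acetylated H3K4me3 peaks only and with no width limit, and 30.6% for widths under 1500 bp. The density, 17.9 per Mb, was 17.4, 18.7, 19.2 and 13.9 with edge distances, acetylated H3K4me3 only, no width limit and widths under 1500 bp. It was 15.5 after merging peaks up to 2 kb apart, 16.4 at 30 to 100 kb and 18.7 at 20 to 80 kb. Intervals of over 40 kb with a distal peak, 47.3%, became 45.1% with edge distances, 51.7% with acetylated H3K4me3 only and 42.7% for widths under 1500 bp. The median distance was 38.9 kb with acetylated H3K4me3 only and 38.4 kb for widths under 1500 bp. The median score was 109 with no width limit, 89.0 for widths under 1500 bp and 107.5 after merging. Another distal peak was near for 50.0% with no width limit, 36.6% for widths under 1500 bp, 34.5% after merging, 27.3% when near meant 5 kb and 63.1% when it meant 20 kb. The ratio of density around the widest and narrowest H3K4me3 quintiles, 2.18, was 1.87 with acetylated H3K4me3 only and 1.95 for widths under 1500 bp. The width difference of 345 bp between distal peaks with 5 or more and with 0 others within 50 kb was 490 bp with no width limit and 152 bp for widths under 1500 bp.

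Limiting H3K27ac to the top 50% by score gave 1145 distal peaks, 33.9% of H3K27ac-only peaks, with a median score of 293, a median distance of 35.2 kb and 4.03 peaks per Mb. The ratio of density at 20 to 50 and 50 to 100 kb was 1.61, the share with another near 15.7%, the share with acetylated nearest H3K4me3 88.0%, the share of intervals used 19.3%, the ratio by H3K4me3 width 2.38 and the width difference 439 bp (-219 to 1097). The score difference from proximal peaks, -5.40 as reported, reversed to 2.31. This setting selects on score itself, so it cannot test the direction of that difference, which is not established. With the 50% of H3K4me3 peaks of highest score, the overlap was also taken with this shorter list. Peaks on a left-out H3K4me3 peak therefore counted as without H3K4me3. Under this setting 7752 peaks were distal, 44.1% of the peaks then without overlap, with a median score of 118 and a median distance of 43.1 kb. There were 27.2 peaks per Mb, a density ratio of 1.29 by distance and 1.36 by H3K4me3 width, and a score difference of -16.9. Another was near for 53.2%, the nearest H3K4me3 was acetylated for 99.3%, 70.4% of intervals were used and 52.5% of distal peaks were nearer to the wider flank. The cause of these changes was not tested. No paired analysis was possible because there is a single list for H3K27ac and for H3K4me3, and unknown read depth limits every count.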
